A study of Homo sapiens with 3 samples.

Results

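The genes described here encode the solute carriers of the inner mitochondrial membrane (the SLC25 family) and the numbered subunits of the machinery that imports proteins into mitochondria (the TIMM and TOMM genes). They were picked by a naming rule, set with earlier results of these data known. It took symbols made of SLC25A, TIMM or TOMM and a number, with letters allowed after the number for TIMM and TOMM. The rule found 67 of the 25247 gene symbols in the tables, in 68 rows. Of these, 47 were carriers and 20 were import subunits. The cells were OCI-AML2 R50, a culture of the established acute myeloid leukaemia (AML) line OCI-AML2. All groups, the control included, grew in MEMα medium with 15% FBS and 50 µM Ara-C (cytarabine, a nucleoside analogue used in AML chemotherapy). The control group (1 library) had no other drug, and the romidepsin group (2 libraries) received romidepsin, an inhibitor of class I histone deacetylases, for 18 h. All libraries come from 1 cell line, and the labels give neither the dose nor whether the romidepsin libraries were separate cultures. P-values therefore cover the spread within this pair alone, possibly a technical one.

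Most mitochondrial proteins are made in the cytosol and enter through the TOM complex of the outer membrane. From there the TIM23 complex takes proteins with a presequence into the inner membrane and matrix, while the small TIM chaperones pass hydrophobic proteins, the SLC25 carriers among them, to the TIM22 complex, which inserts them into the inner membrane. The carriers then exchange ADP for ATP and move phosphate, metabolites, cofactors and iron across that membrane.

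Expression was read in FPKM, fragments scaled to gene length and library size, so levels of different genes can be set side by side. The libraries held about 19200000 fragments (control) and 22200000 and 20800000 fragments (romidepsin), estimated roughly from the steps between low values, so that a gene of 2 kb at 1 FPKM rested on about 38 to 44 fragments. The 8 myeloid genes used to check the line (MPO, ELANE, CTSG, AZU1, PRTN3, CD33, SPI1 and CEBPA) lay between 28.1 and 1422 FPKM over the libraries. Their summed level was 4895 FPKM in the control, against 2384 and 2366 FPKM with romidepsin. All but CEBPA, which rose, fell, and the part of this in the other results was not tested. Of 10 markers of T, B, erythroid, epithelial and fibroblast cells, 6 were at 0 FPKM in all libraries and none exceeded 0.303 FPKM in the control. The highest value after romidepsin was 2.54 FPKM, for the fibroblast collagen gene COL1A1.

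Import subunits were lower after romidepsin almost throughout, whereas the carriers went in both directions. Genes at 1 FPKM or more in some library were tested, which took in 19 of the 20 import subunits and 35 of the 47 carriers, and all of these were above 1 FPKM in the control. By limma (Benjamini-Hochberg adjusted p under 0.05 over all 11708 tested genes), 18 of the 19 import subunits fell and 0 rose, also at an unadjusted p under 0.05. Of the 35 carriers, 16 fell, 9 rose and 10 were not called. Over all tested genes 76.5% were called, 41.8% lower and 34.7% higher, so the split of the carriers lay near that of the transcriptome. Of the 11708 genes, 870 were under 1 FPKM in the control and passed the filter only through romidepsin. This raises the upward shares over all tested genes. The median difference of log2(FPKM + 1), romidepsin minus control, was -0.51 for import subunits, -0.11 for carriers and -0.05 for all tested genes. The control was above both romidepsin libraries for 19 of 19 import subunits and 21 of 35 carriers (51.4% of all tested genes), and below both for 0 and 12 (43.8%). In bulk RNA and FPKM, fewer cells with a transcript and less of it per cell cannot be told apart. Since 1 library stands for the control, its own deviation and the treatment cannot be told apart either.

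**Figure D1:**
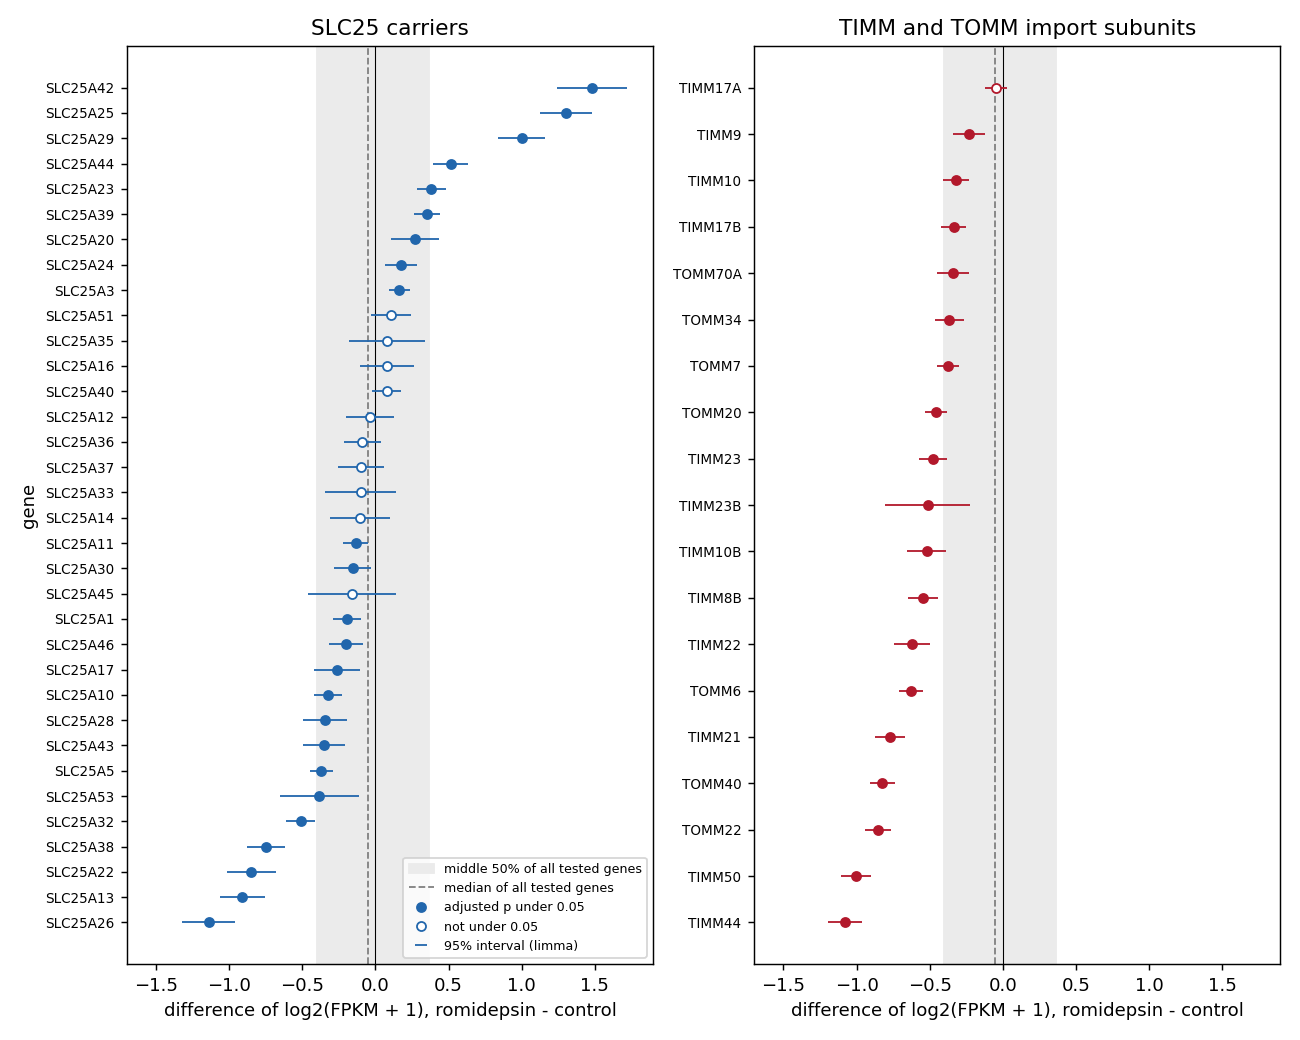
Difference of log2(FPKM + 1) between the romidepsin and control libraries (x axis) for the tested carriers (left, 34 of 35 genes shown) and import subunit (right, 19 genes). Points are limma estimates with 95% intervals, filled where the adjusted p was under 0.05. The grey band spans the middle 50% of all tested genes and the dashed line marks their median. Every import subunit lies left of 0, from -1.08 for TIMM44 to -0.05 for TIMM17A (which turned higher under a common sum or quantile normalization), while the carriers run from -1.14 to 1.48.

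In summed level, the 20 import subunits held 1901 FPKM in the control, against 1360 and 1350 FPKM with romidepsin. The 47 carriers held 1994 FPKM and then 1863 and 1834 FPKM. The import sum was therefore 0.953 times the carrier sum in the control and 0.730 and 0.736 times in the romidepsin libraries. A pair of carriers, SLC25A5 and SLC25A3, made up 64.0% of the carrier sum in the control and 64.0% and 63.6% after romidepsin. With both left out, the import sum was 2.65 times that of the other carriers in the control and 2.03 and 2.02 times after romidepsin. The summed FPKM of all rows was also lower with romidepsin, at 668770 and 657210 against 790920 in the control. The family sums were not corrected for this, so their falls are not falls in share of a library. Ratios within a library do not depend on it.

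All 7 tested genes of the TOM complex and its cytosolic partner fell, by a median of 0.46 on the log2 scale (41.8% of all tested genes were called lower). TOMM40, which encodes the channel, was at 133 FPKM in the control, against 75.1 and 73.7 FPKM with romidepsin. TOMM22, the central receptor that joins the channels, was at 114 FPKM and then 62.1 and 63.3 FPKM. In both genes the romidepsin libraries lay close together and well under the control, a 1.78-fold fall for TOMM40 and a 1.82-fold fall for TOMM22 (log2 difference -0.82, SE 0.036, adjusted p = 1.3e-06, and -0.85, SE 0.037, adjusted p = 1.2e-06). The presequence receptor gene TOMM20 was at 248 FPKM in the control, against 180 and 182 FPKM with romidepsin, a smaller fall of 1.37-fold. TOMM70A, the receptor for carrier precursors, went from 38.2 to 30.7 and 29.3 FPKM, a 1.27-fold fall, and was among the least changed of the complex. The small subunit genes were the most abundant import transcripts. TOMM7 was at 322 FPKM in the control, against 246 and 250 FPKM with romidepsin. TOMM6 was at 267 FPKM and then 175 and 170 FPKM, a larger fall of 1.55-fold against 1.30-fold for TOMM7. TOMM34, a cytosolic co-chaperone, fell 1.30-fold to 37.6 ± 0.916 FPKM (SD, n = 2). RefSeq lists 6 pseudogenes named for TOMM22 and 4 each for TOMM20 and TOMM40, whose reads the counting could have shared with them.

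**Figure D2:**
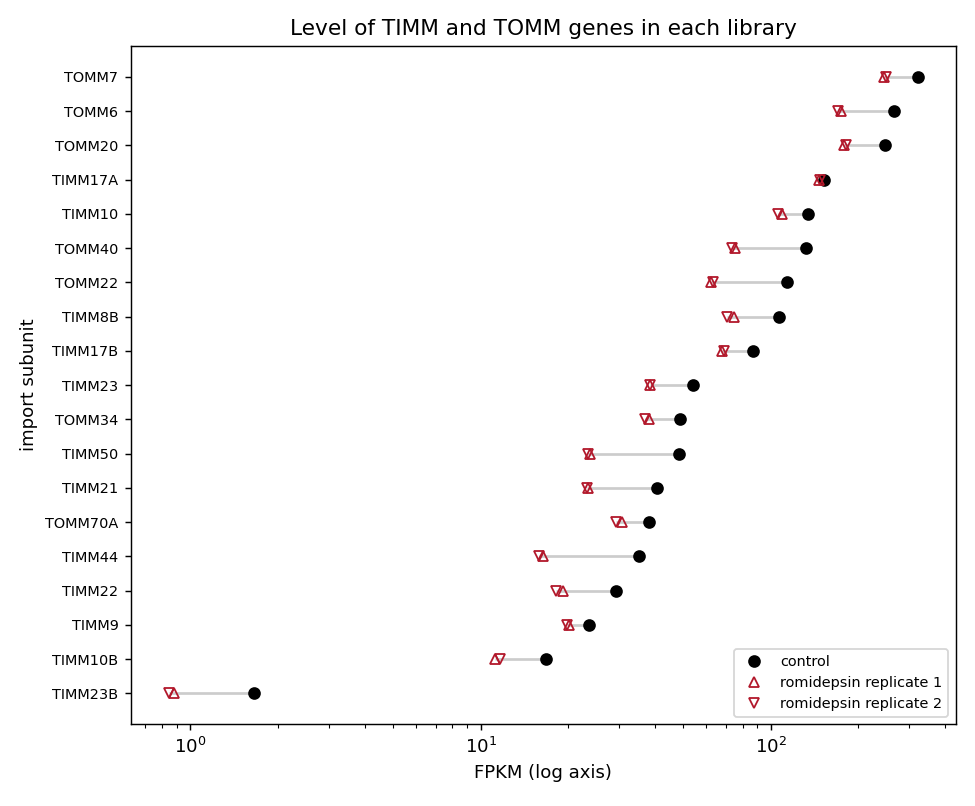
Level of each tested import subunit in FPKM (log axis) in the control (black) and in both romidepsin libraries (red triangles). The control lies above both romidepsin libraries in all 19 genes, and the romidepsin pair nearly coincides, for instance at 38.4 and 38.3 FPKM for TIMM23.

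The TIM23 translocase held both the largest import falls and the import subunit that was not called. TIMM44, which tethers the import motor to the channel, was at 35.1 FPKM in the control, against 16.4 and 15.8 FPKM with romidepsin. It was the import subunit lower by at least 2-fold in both libraries on the log2(FPKM + 1) scale (3.08% of all tested genes met that rule downward), at a log2 difference of -1.08 (SE 0.049, adjusted p = 1.5e-06). Under a common summed FPKM, 0 import subunits met that rule. TIMM50, the receptor that takes presequences over from TOM, was at 48.4 FPKM and then 23.9 and 23.4 FPKM. Its differences of -0.99 and -1.02 lay on either side of the 2-fold line. TIMM21, which links TOM to TIM23, went from 40.5 to 23.4 and 23.2 FPKM, a 1.74-fold fall. The channel gene TIMM23 fell 1.40-fold, from 53.8 to 38.4 and 38.3 FPKM. Its near-identical copy TIMM23B, at 1.65 FPKM in the control, against 0.876 and 0.841 FPKM with romidepsin, was also called lower, but reads of such copies can be split between them and both values are uncertain.

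TIMM17A and TIMM17B encode alternative subunits of the same channel and differed in their response. TIMM17B went from 86.7 to 68.0 and 69.1 FPKM, a 1.27-fold fall (log2 difference -0.34, SE 0.037, adjusted p = 0.00011). TIMM17A was at 152 FPKM in the control, against 147 and 148 FPKM with romidepsin (log2 difference -0.05, 95% interval -0.12 to 0.03, adjusted p = 0.23). TIMM17A was thus 1.75 times as abundant as TIMM17B in the control and 2.16 and 2.14 times as abundant after romidepsin. Under a common summed FPKM, or with quantile normalization, TIMM17A was called higher (log2 difference 0.19 and 0.23), so its direction depends on the scaling. The difference between the genes was not tested.

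All 5 genes of the TIM22 pathway found by the naming rule fell, by 0.23 to 0.62 on the log2 scale (41.8% of all tested genes were called lower). A further TIM22 subunit, TIMM29, stood under its older symbol C19orf52 and was not called (log2 difference -0.10, limma adjusted p = 0.11). TIMM22, the insertase for carriers, was at 29.4 FPKM in the control, against 19.3 and 18.3 FPKM with romidepsin, a 1.56-fold fall (adjusted p = 2.8e-05). The small chaperones of the intermembrane space work as hetero-oligomers. Among them TIMM8B went from 107 to 74.95 and 70.98 FPKM and TIMM10B from 16.8 to 11.2 and 11.7 FPKM, each a 1.47-fold fall. The partners TIMM9 and TIMM10 fell least, TIMM10 from 135 to 110 and 106 FPKM and TIMM9 from 23.7 to 20.1 and 19.9 FPKM. Scaling to the same sum ended the calls of TIMM10 (adjusted p = 0.0904), TIMM9 (adjusted p = 0.979) and TOMM70A (adjusted p = 0.0787), and quantile normalization that of TIMM10 (adjusted p = 0.152).

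Of 23 other import genes on a list of the presequence motor, matrix chaperones, insertion machinery and presequence peptidases, 21 had a row of their own and all 21 were tested. In this list 18 fell (85.7%, against 41.8% of all tested genes called lower) and 1 rose, with a median log2 difference of -0.46. Their median level in the control was 27.9 FPKM. Among all genes of at least 10 FPKM in the control 58.2% were called lower, a choice that itself favours falls. Under a common sum 12 of the list were called lower, and with quantile normalization 14. The calls lost under a common sum were those of ROMO1, MTX1, MTX2, OXA1L, PMPCB and MIPEP. CHCHD4, the receptor and oxidase that traps small cysteine-rich proteins in the intermembrane space, had the largest fall, from 41.2 FPKM in the control to 12.4 and 13.9 FPKM (3.12-fold, adjusted p = 1.4e-06). Its partner GFER fell from 8.01 to 5.36 and 5.79 FPKM. HSPA9, the matrix Hsp70 of the import motor, fell from 255 to 165 and 163 FPKM, and its exchange factor GRPEL1 from 118 to 75.2 and 79.7 FPKM. HSPD1, the matrix chaperonin that folds imported proteins, fell from 554 to 301 and 302 FPKM. HSPA9, GRPEL1 and HSPD1 thus fell 1.52-fold to 1.84-fold. Of the other motor and chaperone genes, DNAJA3 (1.49-fold), DNAJC19 (1.38-fold) and ROMO1 (1.23-fold) fell less. The ROMO1 call was lost with no filter (adjusted p = 0.0945), under a common sum (adjusted p = 0.383) and with quantile normalization (adjusted p = 0.876). SAMM50, which builds barrel proteins into the outer membrane, fell from 69.4 to 44.8 and 45.6 FPKM. Among the peptidases PMPCA fell 1.62-fold, while IMMP1L, a subunit of the inner membrane peptidase, was the riser, from 6.40 to 13.7 and 12.6 FPKM. Its partner IMMP2L fell from 7.83 to 4.47 and 4.83 FPKM. GRPEL2 and DNAJC15 were not called (log2 differences -0.15 and 0.03), though DNAJC15 was called higher under a common sum (adjusted p = 0.00466).

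Abundant genes fell more often than scarce ones across the transcriptome, and import subunits were abundant, with a median of 53.8 FPKM in the control against 14.4 FPKM for the tested carriers. Both families were therefore also set beside genes of at least 10 FPKM in the control, a level chosen after the values were seen. This level is read from the control library that the difference is taken from, so the choice itself favours falls. Of 6518 such genes 58.2% were called lower and 23.6% higher, with a median log2 difference of -0.22. Of the 18 import subunits at that level 17 fell and 0 rose, with a median of -0.50. Of the 21 carriers at that level 13 fell and 5 rose, with a median of -0.19, close to the genes of that level. The cut did not make the groups alike in level. Median control levels were 70.3 FPKM for these import subunits, 23.8 FPKM for these carriers and 28.9 FPKM for the 6518 genes. With a mean of at least 5 FPKM over all libraries instead, 4234 of 8625 genes were called lower and 2711 higher. Their median was -0.12, against -0.50 for import subunits and -0.11 for carriers under that filter. Scaling each library to the same sum moved the median of all genes by 0.21, from -0.05 to 0.16, and turned the calls over all genes to 5738 higher and 3061 lower. The carrier calls then turned to 14 higher and 7 lower of 36. Relative to the median of all genes, import subunits were at -0.46 and carriers at -0.06 both as deposited and with this scaling, which shifts nearly all genes alike. With quantile normalization the import subunits were at -0.26 and the carriers at -0.06, a smaller distance for the import subunits. In number, 18 of 19 import subunits and 21 of 35 carriers lay below that median as deposited, and 18 and 21 of 36 with this scaling.

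**Figure D3:**
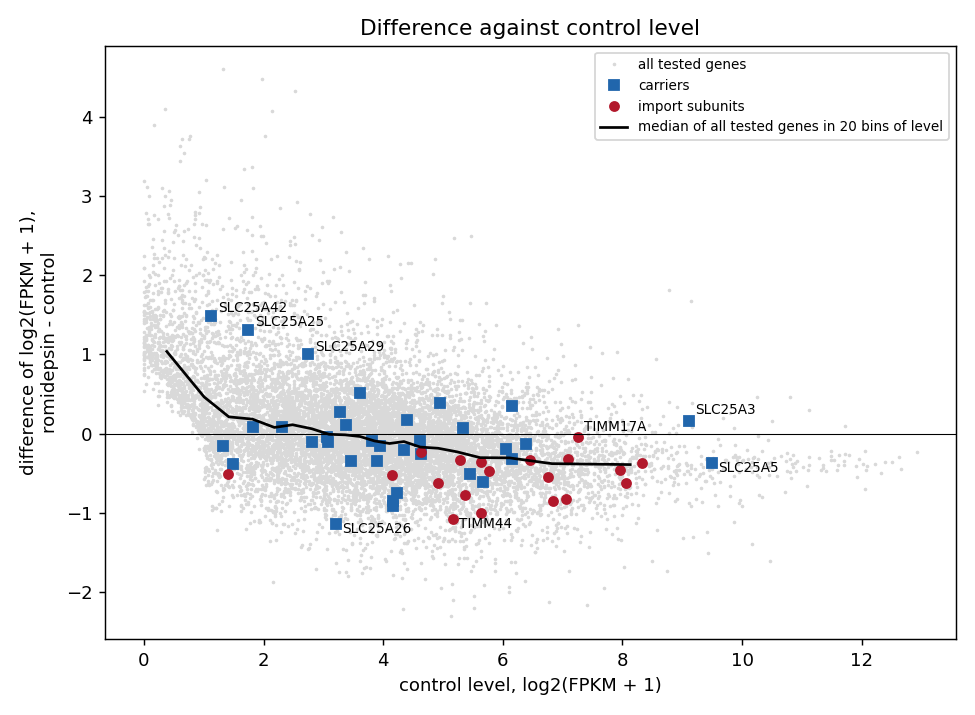
Difference of log2(FPKM + 1) after romidepsin (y axis) against the control level on the same scale (x axis). Grey points are the 11708 tested genes, the black line joins their medians in 20 bins of level, blue squares are carriers and red circles import subunits. Most red circles lie under the line, with TIMM10, TIMM17B and TOMM7 close to it and TIMM17A above it, and blue squares lie on both sides of it.

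Among the carriers, the ADP/ATP exchangers and their neighbours came first in abundance. SLC25A5, which encodes the ADP/ATP carrier of dividing cells, was the most abundant carrier at 720 FPKM in the control and was at 565 and 549 FPKM after romidepsin. It fell 1.29-fold (log2 difference -0.37, SE 0.033, adjusted p = 3.6e-05). SLC25A3, the phosphate carrier that supplies ATP synthase, was at 556 FPKM and then 628 and 617 FPKM, a 1.12-fold rise (adjusted p = 0.0022). The order of the pair turned, with SLC25A5 at 1.29 times SLC25A3 in the control and 0.899 and 0.890 times after romidepsin. The fall of SLC25A5 stood at a log2 difference of 0.03 with quantile normalization (adjusted p = 0.26). RefSeq names 9 pseudogenes for SLC25A5 and 3 for SLC25A3, so reads of both may be shared with other loci. The other ADP/ATP carriers were not tested: SLC25A4, the form of heart and muscle, was at 0.0926, 0.139 and 0.0400 FPKM, and SLC25A31, the form of germ cells, was listed at 0. SLC25A6 was also listed at 0 in all libraries in both of its rows. It is a widely expressed gene of the pseudoautosomal region of the X and Y chromosomes, so its 0 is not read as absence.

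The tested ATP-Mg/phosphate carriers, which set the adenine nucleotide content of the matrix, were all called higher, as were 34.7% of all tested genes. SLC25A25 was at 2.34 FPKM in the control, against 7.04 and 7.44 FPKM with romidepsin, a 3.10-fold rise (log2 difference 1.30, SE 0.076, adjusted p = 4.7e-06). It met the 2-fold rule in both libraries (7.43% of all tested genes met it upward, a share raised by genes that passed the filter only through romidepsin). SLC25A23 rose 1.31-fold, from 29.7 to 38.9 and 39.2 FPKM, and SLC25A24 rose 1.13-fold, from 20.2 to 23.1 and 22.7 FPKM. SLC25A25 stood at 0.116 times the level of SLC25A24 in the control and 0.305 and 0.327 times after romidepsin. The fourth member, SLC25A41, stayed under 1 FPKM and was not tested (0.153, 0.579 and 0.952 FPKM). The antisense gene SLC25A25-AS1 was at 1.47 FPKM in the control, against 1.32 and 1.62 FPKM with romidepsin, and as strandedness is unknown its reads and those of SLC25A25 cannot be told apart. The pyrimidine nucleotide carriers SLC25A33 and SLC25A36 were not called, at log2 differences of -0.10 and -0.09. SLC25A33 was the member of this group whose romidepsin libraries lay on either side of the control (6.01 FPKM against 5.03 and 6.07 FPKM). SLC25A17, a peroxisomal carrier of nucleotide cofactors, fell 1.21-fold. Its call was lost with no filter (adjusted p = 0.132), under a common sum (adjusted p = 0.68) and with quantile normalization (adjusted p = 0.117).

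Of the 10 tested carriers of carboxylates, acyl groups and amino acids, 6 fell and 3 rose. Over all tested genes 41.8% were called lower and 34.7% higher, so this split of few genes is not read as particular to them. The aspartate/glutamate exchangers of the malate-aspartate shuttle differed from each other. SLC25A13, which encodes citrin, was at 16.9 FPKM in the control, against 8.90 and 8.20 FPKM with romidepsin, a 1.98-fold fall (log2 difference -0.91, SE 0.066, adjusted p = 1.3e-05). SLC25A12, which encodes aralar, was at 7.30 FPKM and then 6.88 and 7.29 FPKM (log2 difference -0.04, 95% interval -0.20 to 0.12, adjusted p = 0.63). Citrin mRNA was thus 2.32 times that of aralar in the control and 1.29 and 1.13 times after romidepsin. The other partner of that shuttle, the oxoglutarate/malate carrier gene SLC25A11, fell 1.10-fold from 82.4 to 74.1 and 75.6 FPKM.

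SLC25A22, a glutamate carrier, fell from 17.0 to 8.53 and 9.47 FPKM. SLC25A38, which brings glycine into mitochondria for haem synthesis, fell from 17.7 to 10.3 and 9.97 FPKM. Both lay well apart from the control, at 1.89-fold and 1.75-fold. Smaller falls were those of the dicarboxylate carrier SLC25A10 (1.26-fold) and the citrate carrier SLC25A1 (1.15-fold). Under a common sum, SLC25A11 was called higher (log2 difference 0.10, adjusted p = 0.044) and SLC25A10 and SLC25A1 were not called (adjusted p = 0.091 and 0.34). With quantile normalization none of these 3 was called (adjusted p = 0.0642, 0.0543 and 0.877), and SLC25A11 was not called without a trend (adjusted p = 0.0711).

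The risers of this group were SLC25A29, SLC25A44 and SLC25A20. SLC25A29, a carrier of basic amino acids, was at 5.73 FPKM in the control, against 11.95 and 12.96 FPKM with romidepsin (2.18-fold, SE 0.068 on the log2 scale, adjusted p = 9.7e-06). SLC25A44, which carries branched-chain amino acids, rose 1.47-fold from 11.3 to 16.5 and 16.6 FPKM. SLC25A20, the carnitine/acylcarnitine carrier of fatty acid oxidation, rose 1.23-fold from 8.68 to 10.2 and 11.2 FPKM. All 3 had both romidepsin libraries above the control, as did 43.8% of all tested genes. Being picked as risers, they were likely to do so. The SLC25A20 call was lost with no filter on low values (adjusted p = 0.11).

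**Figure D4:**
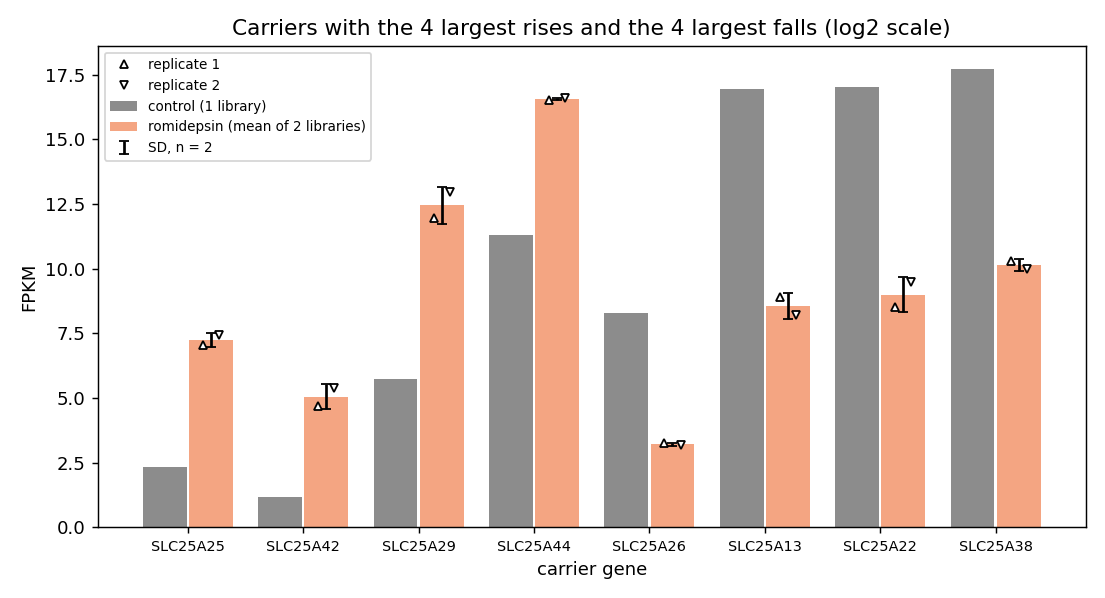
FPKM of the carriers with the 4 largest rises and the 4 largest falls on the log2(FPKM + 1) scale. Grey bars are the control library and orange bars the mean of the romidepsin libraries, with the SD (n = 2) and each replicate as a triangle. The romidepsin replicates of each gene lie on the same side of the control, for instance at 4.71 and 5.41 FPKM against 1.17 FPKM for SLC25A42. This follows from the choice of genes by their difference, and it held for 11148 of all 11708 tested genes.

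The carriers of cofactors, iron and glutathione held the largest fall and the largest rise of the family. SLC25A26, which imports the methyl donor S-adenosylmethionine, was at 8.30 FPKM in the control, against 3.25 and 3.17 FPKM with romidepsin. This was a 2.58-fold fall (log2 difference -1.14, SE 0.076, adjusted p = 9.1e-06). It was the carrier that met the 2-fold rule downward in both libraries, and 0 carriers met it with scaling to the same sum. SLC25A42, a carrier of coenzyme A, was at 1.17 FPKM in the control, against 4.71 and 5.41 FPKM with romidepsin, a 4.34-fold rise (log2 difference 1.48, SE 0.10, adjusted p = 9.7e-06). SLC25A16, also linked to coenzyme A, was at 3.94 FPKM and then 4.25 and 4.17 FPKM (adjusted p = 0.39). SLC25A42 thus went from 0.296 times the level of SLC25A16 to 1.11 and 1.30 times.

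The folate carrier SLC25A32 fell 1.44-fold, from 42.8 to 29.7 and 29.8 FPKM. Of the mitoferrins, which import iron, SLC25A28 fell 1.30-fold from 13.9 to 11.1 and 10.3 FPKM. SLC25A37, the mitoferrin of erythroid cells, was at 23.4 FPKM and then 23.0 and 20.6 FPKM, replicates further apart than their mean and the control (adjusted p = 0.22). Of the glutathione carriers, SLC25A39 rose 1.28-fold from 70.6 to 89.4 and 91.6 FPKM, while SLC25A40 was at 39.3 FPKM and then 42.2 and 40.7 FPKM (adjusted p = 0.15). SLC25A51, the NAD carrier, was not called at a log2 difference of 0.11. Under a common sum, SLC25A16, SLC25A40 and SLC25A51 were called higher (adjusted p = 0.019, 0.00081 and 0.0026), SLC25A40 also with quantile normalization (adjusted p = 0.00904). The SLC25A28 call was lost under a common sum (adjusted p = 0.12) and with no filter (adjusted p = 0.053).

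Of the 7 tested carriers that are uncoupling-like or whose substrate is not settled, 4 fell and none rose, against 41.8% of all tested genes called lower. SLC25A53 fell from 1.82 to 1.16 and 1.16 FPKM, SLC25A43 from 9.97 to 7.61 ± 0.0134 FPKM (SD, n = 2), SLC25A46, which acts at the outer membrane in mitochondrial shape, from 19.3 to 16.9 and 16.4 FPKM, and SLC25A30 from 14.4 to 12.65 and 12.97 FPKM. SLC25A14, SLC25A35 and SLC25A45 were not called, though SLC25A45 was called lower with quantile normalization (adjusted p = 0.0339). Under a common sum none of the 4 kept its call (adjusted p = 0.0997, 0.0855, 0.655 and 0.281). Quantile normalization also ended the calls of SLC25A46 (adjusted p = 0.0558) and SLC25A30 (adjusted p = 0.0813), and the SLC25A30 call was lost with no filter (adjusted p = 0.0723) and no trend (adjusted p = 0.0519).

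In all, 12 carriers and 1 import subunit, TOMM20L, stayed under 1 FPKM in every library and were not tested. SLC25A21, SLC25A31, SLC25A47, SLC25A48, SLC25A6 and TOMM20L were listed at 0 throughout. The others were SLC25A2, SLC25A4, SLC25A18, SLC25A27, SLC25A34, SLC25A41 and SLC25A52, none above 0.952 FPKM.

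Proteins that share the work of the carriers were read from a list of 18 symbols, of which 15 had a row and 13 were tested. The symbols without a row, MCART1, MCART2 and MCART6, are older names of SLC25A51, SLC25A52 and SLC25A53, already counted among the carriers. In this list 8 fell and 2 rose, a share of 61.5% lower. Over all tested genes 41.8% were called lower, and 58.2% among genes of at least 10 FPKM in the control, a choice that itself favours falls. The median level of the list in the control was 48.4 FPKM. The porins of the outer membrane all fell, VDAC1 from 183 to 100.3 and 98.9 FPKM, VDAC2 from 48.4 to 37.2 and 37.5 FPKM and VDAC3 from 330 to 236 and 238 FPKM. Of the sideroflexins, SFXN4 fell from 40.7 to 20.2 and 19.1 FPKM, SFXN2 from 9.18 to 5.12 and 4.73 FPKM, and SFXN1, a serine carrier, from 43.7 to 33.1 and 33.2 FPKM. SFXN3 and SFXN5 were not called, but were called higher under a common sum (adjusted p = 0.0248 and 0.0258). UCP2, an uncoupling protein of the SLC25 fold, fell from 111 to 82.7 and 80.1 FPKM. The related outer membrane insertase gene MTCH2 fell 1.28-fold, while MTCH1 rose from 87.1 to 111 and 108 FPKM. Of the pyruvate carrier subunits, MPC2 rose from 35.1 to 40.9 and 38.3 FPKM (adjusted p = 0.019), a call lost without a mean-variance trend (adjusted p = 0.079) and with no filter (adjusted p = 0.14). MPC1 was at 51.8 FPKM and then 53.9 and 54.2 FPKM (adjusted p = 0.18), and was called higher under a common sum (adjusted p = 0.00058) and with quantile normalization (adjusted p = 0.0054).

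Promoters of the tested members, called or not, were searched for 5 short motifs on both strands, in the RefSeq windows of 250 bases before to 50 after each gene start (GRCh38.p14), which held 46 of the 54 tested members in 55 windows. The motifs were picked with the values in view, and a match is a description, not a site. The E-box CACGTG, a palindrome that MYC and related factors can bind, stood in 7.26% of all 35116 promoter windows and at 12.99% of the 8409 tested genes with a window, in 8 of 38 windows of carriers (8 of 29 genes) and in 2 of 17 of import subunits (TOMM20 and TIMM10). The carriers with the 4 largest falls, SLC25A26, SLC25A13, SLC25A22 and SLC25A38, all held it. The others that held it had small differences, from -0.20 for SLC25A46 to 0.11 for SLC25A51, with SLC25A33 and SLC25A36 between them. The 8-letter cAMP response element TGACGTCA was in 1.85% of all windows (3.94% of tested genes), in 3 carrier windows, SLC25A25 among them, and in 0 import windows. An NRF1-type motif, of a factor of nuclear genes for mitochondria, was in 5.78% of all windows (14.0% of tested genes), in 4 import windows and in 3 carrier windows. The ETS-type motif CCGGAAG was in 10.3% of all windows (23.3% of tested genes), in 8 import windows and in 9 carrier windows. CCAAT was in 34.6% of all windows (43.5% of tested genes), in 7 import windows (TIMM44, TIMM50 and TIMM17A among them) and in 17 carrier windows. No overlap between these motifs was removed.

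The 250 bases before the start are shown for 3 of the 4 carriers with the largest falls, for the riser SLC25A25 and for the import subunits with the largest falls. Capitals mark CACGTG in SLC25A26 (chr3:66220751-66221000, plus strand), SLC25A13 (chr7:96322099-96322348, minus strand) and SLC25A38 (chr3:39383120-39383369, plus strand). They mark TGACGTCA in SLC25A25 (chr9:128098257-128098506, plus strand). In TIMM44 (chr19:7943667-7943916, minus strand) they mark CCAAT, and in TIMM50 (chr19:39480588-39480837, plus strand) its reverse complement ATTGG. In SLC25A22 the E-box spans the start, at position -3, and is not shown. SLC25A33, SLC25A36, SLC25A46 and SLC25A51, the carriers with small differences, also hold an E-box before the start, at positions -26, -143, -47 and -59, and are not shown. Coordinates are those of GRCh38.p14, a build other than the hg19 of the expression tables, and only gene symbols join the sources.
SLC25A26: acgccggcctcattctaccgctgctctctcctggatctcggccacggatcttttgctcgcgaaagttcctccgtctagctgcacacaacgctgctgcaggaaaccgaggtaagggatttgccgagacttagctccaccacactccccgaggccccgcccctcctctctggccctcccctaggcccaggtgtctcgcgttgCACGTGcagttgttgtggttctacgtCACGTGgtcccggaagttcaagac
SLC25A13: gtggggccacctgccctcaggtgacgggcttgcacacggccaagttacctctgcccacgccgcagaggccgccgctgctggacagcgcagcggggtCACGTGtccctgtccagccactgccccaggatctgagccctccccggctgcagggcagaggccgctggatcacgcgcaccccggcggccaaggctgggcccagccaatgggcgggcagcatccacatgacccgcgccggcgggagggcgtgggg
SLC25A38: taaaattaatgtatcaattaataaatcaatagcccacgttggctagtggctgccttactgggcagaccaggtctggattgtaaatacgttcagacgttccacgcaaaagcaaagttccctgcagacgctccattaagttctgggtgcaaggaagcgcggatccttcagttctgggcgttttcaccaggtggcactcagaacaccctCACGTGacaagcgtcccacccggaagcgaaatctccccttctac
SLC25A25: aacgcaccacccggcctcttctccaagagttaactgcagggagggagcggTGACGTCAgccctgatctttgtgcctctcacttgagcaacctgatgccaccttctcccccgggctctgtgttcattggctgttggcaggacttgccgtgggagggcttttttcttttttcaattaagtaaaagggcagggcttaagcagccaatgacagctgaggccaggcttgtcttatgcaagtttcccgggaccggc
TIMM44: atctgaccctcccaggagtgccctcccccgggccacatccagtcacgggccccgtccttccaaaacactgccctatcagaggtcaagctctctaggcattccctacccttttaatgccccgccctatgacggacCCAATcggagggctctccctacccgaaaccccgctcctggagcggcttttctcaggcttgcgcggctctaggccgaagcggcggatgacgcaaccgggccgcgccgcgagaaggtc
TIMM50: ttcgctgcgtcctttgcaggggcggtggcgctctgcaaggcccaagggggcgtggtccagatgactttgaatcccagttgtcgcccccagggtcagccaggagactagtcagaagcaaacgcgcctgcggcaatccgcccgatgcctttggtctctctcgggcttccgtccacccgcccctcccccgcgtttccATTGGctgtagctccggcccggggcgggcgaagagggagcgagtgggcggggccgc
SLC25A26 holds 2 E-boxes, at positions -50 and -24 from the start, against 1 at -154 in SLC25A13 and 1 at -44 in SLC25A38. The import subunits with the largest falls, TIMM44, TIMM50, TOMM22 and TOMM40, held no CACGTG in these windows.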

How the data were processed

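RNA of 1 control library and 2 romidepsin libraries was analysed from 3 tables of 28837 rows, 1 per library. The values are FPKM as the authors deposited them, per the file headers. The submitters' processing notes name hg19, TopHat, Cufflinks and Cuffdiff. The sources used here give no version, setting, strandedness or annotation. The 1770 rows with no name (22.3%, 22.1% and 21.1% of the summed FPKM) and 27 rows named by a bare number were left out, and rows of 1 symbol were summed. The fit used log2(FPKM + 1) over 11708 genes with at least 1 library at 1 FPKM, in limma 3.58.1 (R 4.3.3; lmFit, eBayes with trend) with Benjamini-Hochberg adjustment. Residual degrees of freedom were 1 (the replicated group) plus a prior of 6.06, so the single control is taken to vary as much as that group. On this scale the change of scarce genes is understated. Folds in the text are ratios of FPKM without the added 1, between the control and the romidepsin mean. SE and p-values belong to the log2(FPKM + 1) difference. The procedure was tested on simulated data. There the control was given the spread of the romidepsin pair, so a deviation of the lone control library was not covered. No row above 0 was identical in both romidepsin libraries. Between them the tested members differed with an SD of 0.081 (log2). Fragment totals were estimated from GENCODE v29 lengths of genes with a single transcript and are approximate.

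Members and lists were chosen with earlier results of these data known. Named in full were members at least 2-fold apart in both libraries, in each role the largest rise, the largest fall and the most abundant gene, and the main ADP/ATP, phosphate, channel and receptor genes; the other members are given more briefly, and 1 tested carrier, counted in all totals, is not reported here. Python 3.11.15, pandas 2.3.3, numpy 2.4.6, scipy 1.17.1 and matplotlib 3.10.9 were used. Alternatives were another pseudocount, other filters, scaling to the same sum, quantile normalization, symbols in 1 row naming 1 gene, no trend, and leaving out each romidepsin library.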

Additional observations from a re-analysis of the deposited data

How the results depend on the processing

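No paired analysis was possible because the control library carries no replicate number and has no partner for the second romidepsin library. Leaving out a romidepsin library left no residual degrees of freedom, so values without a test are given. Import medians were then -0.5 and -0.493 and carrier medians -0.15 and -0.122, and 2-fold lower import subunits numbered 1 to 2. SLC25A33 ran from -0.217 to 0.0125, turning without romidepsin replicate 1, and SLC25A35 to -0.0169 without replicate 2.

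Import medians were -0.553 with a pseudocount of 0.1 (2 subunits 2-fold lower, TIMM50 with TIMM44), -0.499 with a mean of at least 5 FPKM or at 10 FPKM in the control, -0.295 under a common sum and -0.31 with quantile normalization. With either scaling 1 import subunit was called higher (TIMM17A) and 0 were 2-fold lower. Of the 18 called import subunits, 15 and 17 kept their call under these scalings, as did 16 and 18 of the 25 called carriers.

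Carrier medians were -0.0648 with no filter, -0.194 at 10 FPKM in the control (5 called higher) and 0.104 with scaling to the same sum (14 higher, 7 lower, 0 at least 2-fold lower). Quantile normalization left 10 carriers called lower, and a mean of at least 5 FPKM left 1 carrier 2-fold higher and 0 lower, since SLC25A42 and SLC25A26 were then not tested. For other import genes the medians were -0.245 under a common sum (2 higher) and -0.359 with quantile normalization. For genes that share the work of carriers they were -0.376 with a mean of at least 5 FPKM, -0.13 under a common sum (5 higher) and -0.186 with quantile normalization, and 1 was called higher with no filter or no trend.

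Under a common sum the sign turned for SLC25A1 (0.0435), SLC25A11 (0.102), SLC25A12 (0.173), SLC25A14 (0.104), SLC25A30 (0.0685), SLC25A33 (0.103), SLC25A36 (0.132), SLC25A37 (0.132), SLC25A46 (0.0252), TIMM17A (0.193), GRPEL2 (0.0722), OXA1L (0.0854), PMPCB (0.0312) and SFXN3 (0.14). With quantile normalization it turned for SLC25A1 (0.00691), SLC25A5 (0.0262), SLC25A11 (0.097), SLC25A16 (-0.111), SLC25A35 (-0.178), TIMM17A (0.226), OXA1L (0.0888), SFXN3 (0.021) and SFXN5 (-0.134). The cause was not tested.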

Other observations

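Several import genes and a carrier stood in rows that join their symbol with that of a neighbour, so they fell outside the naming rule and their reads cannot be assigned to 1 gene. All of these joint rows were called lower after romidepsin, as were 41.8% of all tested genes. The row of BTK and TIMM8A went from 91.2 to 45.1 and 46.4 FPKM, that of LMNB2 and TIMM13 from 192 to 109 and 109 FPKM, and that of FBXO10 and TOMM5 from 219 to 120 and 132 FPKM. The row of MIR5187 and TOMM40L went from 22.4 to 16.2 and 14.7 FPKM, and that of MIR621 and SLC25A15, the ornithine carrier, from 17.2 to 10.8 and 10.5 FPKM. The motor subunit PAM16 shares a row with CORO7, at 120 FPKM in the control, against 73.2 and 77.4 FPKM with romidepsin. HSPE1, the partner of HSPD1, shares one with MOB4, at 482 FPKM and then 272 and 272 FPKM. The highest limma adjusted p of these 7 rows was 0.00026.

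C19orf52, the older symbol of the TIM22 subunit TIMM29, was at 18.5 FPKM in the control, against 17.5 and 16.8 FPKM with romidepsin (limma adjusted p = 0.11). TIMMDC1, an assembly factor of respiratory complex I related to TIMM17, TIMM22 and TIMM23, fell from 94.9 to 77.3 and 75.7 FPKM (limma adjusted p = 0.00018). These rows were looked at after the values of the members were seen.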
